A study of Mus musculus with 18 samples.

Results

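The axon injury and growth effectors described here are 6 genes, *Sprr1a*, *Gap43*, *Gadd45a*, *Ecel1*, *Flrt3* and *Tnfrsf12a*, of the 36737 genes measured by bulk RNA-seq in mouse L3–L5 dorsal root ganglia (DRG). They were chosen by name, as genes known to act downstream in injured, regrowing sensory neurons, and *Flrt3* also because it was among the clearest rises after fracture in these data. Fracture against sham is therefore given for the 6 genes as a description, with no test. The animals were adult CD1 mice, an outbred strain, in 3 groups of 6 (3 males and 3 females each), with 1 library per mouse. Sham mice had sham surgery, fracture mice had a pinned fracture of the left tibia with vehicle, and fracture plus PDX mice had the same fracture with protectin DX (PDX), a lipid mediator made from docosahexaenoic acid. Ganglia of both fracture groups were taken on day 3, while the day for sham mice, the PDX dose of these mice and the side of the ganglia are not given in the sources used here. Each p-value measures the spread between mice within these groups.

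A DRG holds the cell bodies of sensory neurons, with satellite glia, Schwann cells, macrophages and vessels around them. When the peripheral axon of such a neuron is damaged, transcription factors such as ATF3 and SOX11 switch the cell body to a regrowth program, whose effectors include growth cone proteins, membrane receptors, peptidases and stress regulators. *Sprr1a* and *Gap43* are widely used to mark neurons in that state, and a bone fracture can also injure the nerve fibers that supply the limb. In bulk tissue, more cells with an RNA and more of that RNA per cell cannot be told apart.

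The libraries held 63235040 to 82824942 counted reads each, and all 6 genes passed the filter on low counts in each comparison. Levels are in CPM, a unit that scales each count by its library's size (after TMM), so that mice can be compared, but not genes of different length. The files name the sham columns as controls, and these were matched to the sham mice by sex and number, as the one group left, so comparisons with sham rest on that reading. The sums of 10 sensory neuron markers lay between 10445 and 12747 CPM in every library, as the tissue label says. The library Fracture male 2 had the highest value of its group for each of the 6 genes, so the fold changes of the 6 genes against fracture mice are given with and without it. Markers of placenta, a tissue that should be absent, were detected in the 18 libraries, at a summed 169 to 542 CPM in sham, 27.9 to 256 CPM in fracture and 26.6 to 133 CPM in PDX-treated mice.

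All 6 genes lie on the minus strand of their chromosomes (GRCm38). *Sprr1a* (ENSMUSG00000050359) spans bases 92483952 to 92485895 of chromosome 3, with 1 annotated transcript of 2 exons. *Ecel1* (ENSMUSG00000026247) spans bases 87147655 to 87156521 of chromosome 1 and has up to 18 exons. *Flrt3* (ENSMUSG00000051379) spans bases 140650914 to 140671469 of chromosome 2, inside *Macrod2* on the other strand. *Gadd45a* (ENSMUSG00000036390) spans bases 67035096 to 67037406 of chromosome 6 and overlaps the transcript *E230016M11Rik* on the other strand. *Gap43* (ENSMUSG00000047261) spans bases 42248442 to 42340651 of chromosome 16, and *Tnfrsf12a* (ENSMUSG00000023905) spans bases 23675445 to 23677468 of chromosome 17. The libraries were strand-specific, but the strand setting of the counting is not given in the sources used here, so reads of *Flrt3* and *Gadd45a* could include some of their overlapping neighbors.

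Promoters from RefSeq on GRCm38.p6, 250 bases before to 50 bases after the RefSeq start, were matched for 5 of the 6 genes, *Gap43* being the one without an entry. These starts can differ from those of the gene spans above. Most of the *Ecel1* window, up to base 87156521, lies inside the span given for that gene. Those of *Sprr1a*, *Ecel1* and *Flrt3* are shown because these 3 genes had the largest differences between groups and moved together between mice. They are written 5′ to 3′ on the gene strand, from chr3:92485832-92486131, chr1:87156307-87156606 and chr2:140671427-140671726, with matches to the searched motifs in capitals. The motifs were TGAGTCA (AP-1, the site of dimers of JUN with FOS or ATF proteins) and TGACGTCA (CRE) on both strands, CCAAT on both strands and TATAAA on the gene strand.
Sprr1a: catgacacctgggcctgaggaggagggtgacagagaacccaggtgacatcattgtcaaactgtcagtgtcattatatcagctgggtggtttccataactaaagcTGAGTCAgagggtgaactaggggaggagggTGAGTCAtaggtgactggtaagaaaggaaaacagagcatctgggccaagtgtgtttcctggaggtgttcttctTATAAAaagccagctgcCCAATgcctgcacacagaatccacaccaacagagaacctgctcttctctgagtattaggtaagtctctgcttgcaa
Ecel1: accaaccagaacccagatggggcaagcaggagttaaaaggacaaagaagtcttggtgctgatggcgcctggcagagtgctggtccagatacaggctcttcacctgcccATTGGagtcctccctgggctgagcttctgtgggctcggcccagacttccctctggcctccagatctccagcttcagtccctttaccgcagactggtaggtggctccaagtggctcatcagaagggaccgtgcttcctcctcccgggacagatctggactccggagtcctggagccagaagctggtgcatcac
Flrt3: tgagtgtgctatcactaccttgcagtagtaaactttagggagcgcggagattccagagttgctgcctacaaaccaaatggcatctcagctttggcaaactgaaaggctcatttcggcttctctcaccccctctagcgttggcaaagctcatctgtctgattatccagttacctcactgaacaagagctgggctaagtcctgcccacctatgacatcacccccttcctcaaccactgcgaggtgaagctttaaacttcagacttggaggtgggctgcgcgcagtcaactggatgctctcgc
*Sprr1a* held 2 copies of TGAGTCA, at 146 and 116 bases before the start, with TATAAA at 43 bases and CCAAT at 26 bases before it. Of 32851 mouse promoters of the same length, 5.20% held at least 1 TGAGTCA and 0.222% held at least 2. *Ecel1* held 1 CCAAT, read on the other strand as ATTGG, and *Gadd45a* also held 1, a motif found in 37.4% of promoters. None of the 4 motifs was found in the windows of *Flrt3* and *Tnfrsf12a*, and CRE, found in 1.79% of promoters, was in none of the 5. These are matches of letters and were not tested for binding.

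On the length-corrected FPKM scale of the authors, *Gap43*, a membrane phosphoprotein of the growth cone, was the highest of the 6 genes in sham mice, with a mean of 79.6. *Gadd45a*, a stress gene that acts in growth arrest, DNA repair and p38 signaling, followed at 10.8 FPKM, and *Tnfrsf12a*, the receptor Fn14 for the cytokine TWEAK, at 5.24. *Flrt3*, a leucine-rich repeat membrane protein that binds latrophilins and UNC5 receptors, had 2.18 FPKM in sham mice. *Sprr1a*, a small proline-rich protein of cornified skin that injured neurons switch on, had 1.14 FPKM, and its range overlapped that of *Flrt3*. *Ecel1*, a membrane protein of the neprilysin peptidase family, was lowest at 0.193 FPKM, with no overlap with *Sprr1a*. In fracture plus PDX mice *Sprr1a* was second at 39.8 FPKM, between *Gap43* at 92.1 and *Gadd45a* at 21.7, and its range overlapped both.

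**Figure D1:**
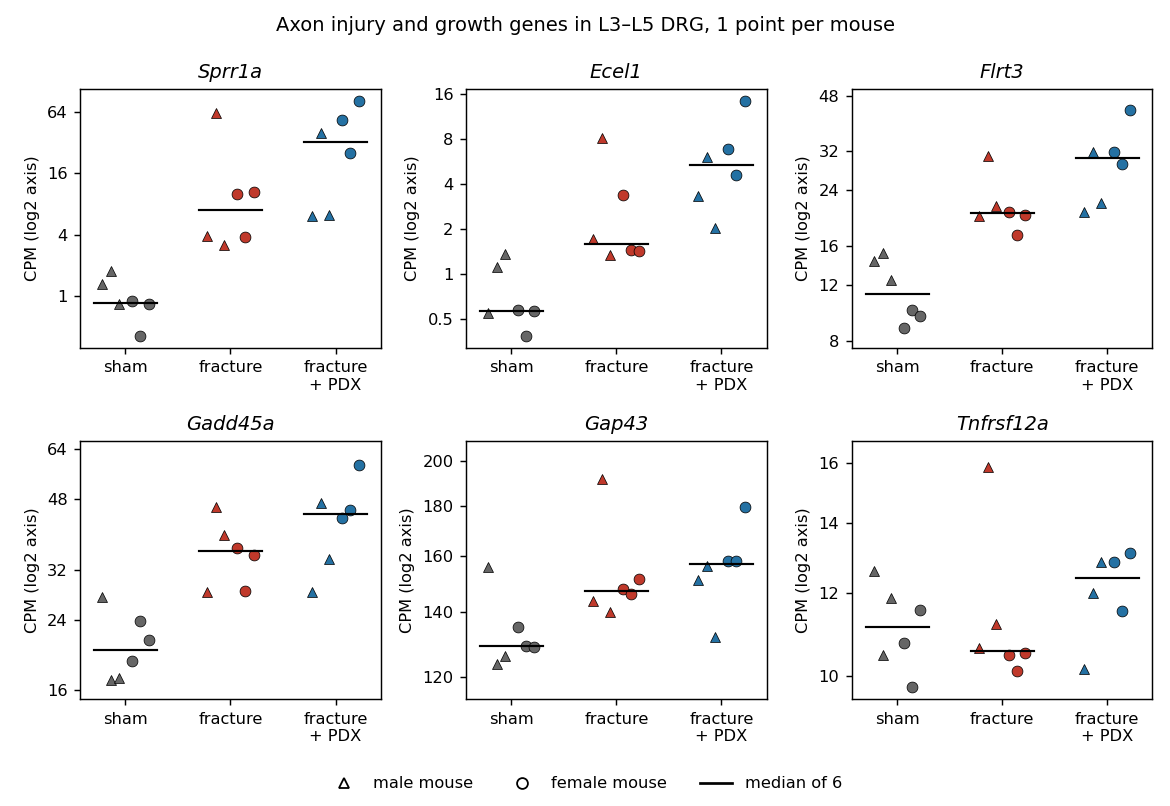
CPM of the 6 genes in each mouse (log2 axis, a separate range for each gene), with triangles for males, circles for females and a bar at the median of 6 mice. Every fracture mouse lies above every sham mouse for *Sprr1a*, *Flrt3* and *Gadd45a*, and the highest fracture mouse in each panel is Fracture male 2.

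Fracture against sham compares the ganglia of mice with and without a fracture, in the absence of PDX. *Sprr1a* ranged from 0.41 CPM (median 0.868) to 1.78 in sham mice and from 3.17 (median 6.91) to 61.5 in fracture mice, so that the groups did not overlap. Its mean was 1.01 ± 0.473 CPM (SD, n = 6) in sham and 15.5 ± 22.8 in fracture mice, a log2 fold change of 3.83 or 14.2-fold. *Ecel1* ranged from 0.385 (median 0.568) to 1.36 CPM in sham and from 1.34 (median 1.58) to 8.13 in fracture mice, a log2 fold change of 1.96 or 3.89-fold. These were the least abundant genes of the 6 in sham mice, with 33 to 142 counts for *Sprr1a* and 31 to 105 for *Ecel1*, and 5 of 6 fracture mice lay above every sham mouse for *Ecel1*. *Flrt3* ranged from 8.79 (median 11.2) to 15.2 CPM in sham and from 17.3 (median 20.3) to 30.9 in fracture mice, a log2 fold change of 0.91 or 1.88-fold. *Gadd45a* ranged from 16.9 (median 20.1) to 27.3 CPM in sham and from 28.2 (median 35.6) to 46.0 in fracture mice, a log2 fold change of 0.76 or 1.70-fold. Neither gene overlapped between the groups, although the lowest fracture mouse was close to the highest sham mouse for *Gadd45a*. *Gap43* ranged from 124 (median 129) to 156 CPM in sham and from 140 (median 147) to 192 in fracture mice, a log2 fold change of 0.21. *Tnfrsf12a* ranged from 9.76 (median 11.1) to 12.6 CPM in sham and from 10.1 (median 10.6) to 15.8 in fracture mice, a log2 fold change of 0.04. For both genes 1 fracture mouse, male 2, lay above every sham mouse and the other values overlapped. Of all 20659 genes tested, 2.92% were called in this comparison and 0.958% were higher in fracture with no overlap of the 6 and 6 mice, as were 3 of the 6 genes, in whose choice this comparison had a part. Without Fracture male 2, the log2 fold change was 2.60 for *Sprr1a*, 1.40 for *Ecel1*, 0.82 for *Flrt3*, 0.67 for *Gadd45a*, 0.13 for *Gap43* and -0.06 for *Tnfrsf12a*.

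In fracture plus PDX mice, *Sprr1a*, *Ecel1* and *Gadd45a* were higher than in sham mice, each with no overlap between the groups, while *Gap43* and *Tnfrsf12a* did not pass the test. This comparison shares the sham mice with fracture against sham, and *Flrt3* was again left untested. *Sprr1a* ranged from 6.14 (median 32.7) to 81.8 CPM with fracture plus PDX, a mean of 35.4 ± 29.3 (SD, n = 6). It was 30.5-fold higher than in sham (log2 fold change 4.93, standard error 0.78, adjusted p = 0.0100 in edgeR's quasi-likelihood test). *Ecel1* ranged from 2.04 (median 5.31) to 14.3 CPM, a mean of 6.18 ± 4.35, and was 7.82-fold higher than in sham (log2 fold change 2.97, standard error 0.52, adjusted p = 0.0115, edgeR). The 95% intervals of these folds were wide, from 8.99 to 103 for *Sprr1a* and from 3.51 to 17.4 for *Ecel1*. On the log2(FPKM + 1) scale, which compresses low genes, the change of *Ecel1* was 1.02 (adjusted p = 0.0249, limma). *Gadd45a* ranged from 28.2 (median 44.0) to 58.5 CPM, a mean of 42.6 ± 10.6, and was 2.02-fold higher (log2 fold change 1.01, standard error 0.17, adjusted p = 0.00871, edgeR). *Flrt3* ranged from 20.5 (median 30.5) to 43.4 CPM, above all sham mice, with a log2 fold change of 1.35. *Gap43* ranged from 132 (median 157) to 179 CPM, and 4 of 6 PDX mice lay above every sham mouse (log2 fold change 0.23, standard error 0.07, adjusted p = 0.0900, edgeR). The call on *Gap43* depended on single mice and on the tool, with an adjusted p of 0.00914 without Sham male 1, 0.0431 without Fracture+PDX male 3 and 0.0230 in DESeq2. *Tnfrsf12a* ranged from 10.2 (median 12.4) to 13.1 CPM and overlapped sham (log2 fold change 0.12, 95% interval -0.06 to 0.29, adjusted p = 0.521, edgeR). Called higher were 3 of the 5 genes tested here, against 2.17% of all 20574 genes, and 2.32% of all genes were called lower (4.5% in either direction). No overlap with sham was seen for 4 of the 6, *Flrt3* among them, against 1.49% of all genes.

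PDX against vehicle in fractured mice is the comparison in which treatment alone differed. *Flrt3* is given as a description here too, since these are the fracture mice whose values it was picked for. None of the other 5 genes passed the test, as was true of every gene in the table (0.0% of 20562 called by edgeR, 1113 with an unadjusted p under 0.05, and 15 called by DESeq2). All 6 log2 fold changes were above 0, with a median of 0.35, where the median of all genes was -4.47e-05. Since the genes varied together between mice, these are not 6 separate observations. *Sprr1a* was 2.23-fold higher with PDX (log2 fold change 1.16), with a 95% interval of the log2 fold change from -1.32 to 3.64 (adjusted p = 0.968, edgeR). This interval runs from 0.401 to 12.4 times the level with vehicle, and 1 PDX mouse lay above every fracture mouse. *Ecel1* differed by 1.03 on the log2 scale (95% interval -0.42 to 2.49, adjusted p = 0.918, edgeR) and *Flrt3* by 0.45, given with no interval. For *Flrt3*, 3 of 6 PDX mice lay above every fracture mouse. The two-sided exact permutation test of 6 against 6 mice gave p = 0.0671 for *Ecel1*, 0.139 for *Sprr1a*, 0.219 for *Gadd45a*, 0.463 for *Tnfrsf12a* and 0.797 for *Gap43*. *Gadd45a* differed by 0.25 on the log2 scale (95% interval -0.16 to 0.66, adjusted p = 0.944, edgeR), with 2 PDX mice above every fracture mouse. *Tnfrsf12a* differed by 0.08 (-0.15 to 0.31, adjusted p = 0.983) and *Gap43* by 0.02 (-0.17 to 0.21, adjusted p = 0.997). These intervals leave room for changes of up to 1.24-fold in *Tnfrsf12a* and 1.15-fold in *Gap43*, far less than for *Sprr1a*. Without Fracture male 2, the log2 fold change was 2.54 for *Sprr1a* (adjusted p = 0.684), 1.72 for *Ecel1* (0.619), 0.59 for *Flrt3*, 0.36 for *Gadd45a* (0.860), 0.19 for *Tnfrsf12a* (0.801) and 0.10 for *Gap43* (0.860). Without Fracture+PDX female 3, the highest PDX mouse for each of the 6 genes, the values moved the other way, to 0.84 for *Sprr1a*, 0.68 for *Ecel1*, 0.32 for *Flrt3*, 0.15 for *Gadd45a*, 0.04 for *Tnfrsf12a* and -0.03 for *Gap43*.

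**Figure D2:**
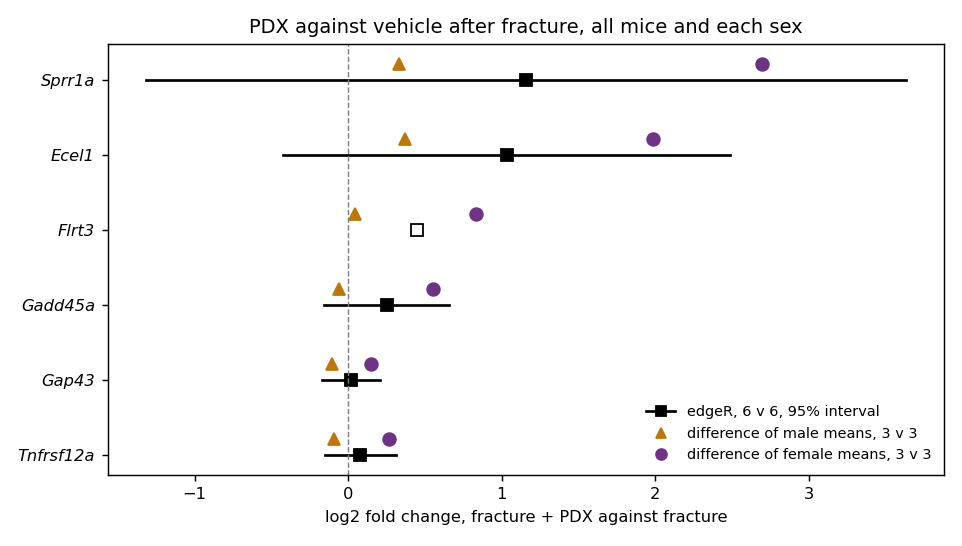
Log2 fold change of the 6 genes in fracture plus PDX against fracture mice, with squares and 95% intervals from edgeR over 6 and 6 mice (an open square with no interval for *Flrt3*, which is a description), and triangles and circles for the differences of mean log2 CPM in 3 and 3 males or females. The interval is widest for *Sprr1a* (-1.32 to 3.64), the intervals of the other 4 genes tested also include 0, and the female difference lies to the right of the male one for each gene.

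The PDX and vehicle groups separated in females, while in males they overlapped, for *Sprr1a* and *Ecel1* through 1 fracture mouse. In females, each PDX mouse lay above each fracture mouse for 6 of the 6 genes, a pattern that 5.22% of all genes showed and that was noticed after the values were seen. The genes varied together between mice, so the 6 do not count as separate observations. *Sprr1a* ranged from 3.80 to 10.6 CPM in fracture females and from 25.4 to 81.8 in PDX females, and *Ecel1* from 1.41 to 3.39 and from 4.58 to 14.3. *Flrt3* ranged from 17.3 to 20.6 CPM and from 29.2 to 43.4, and *Gadd45a* from 28.4 to 36.3 and from 43.0 to 58.5. In *Gap43* (146 to 151 against 158 to 179 CPM) and *Tnfrsf12a* (10.1 to 10.5 against 11.5 to 13.1) the gap was narrow. In males, 0 of the 6 genes separated, against 5.46% of all genes, and *Sprr1a* ranged from 3.17 to 61.5 CPM in fracture and from 6.14 to 40.0 in PDX males. Fracture male 2 is 1 of the 3 vehicle males, and without it the fracture males were at 3.17 and 3.90 CPM for *Sprr1a* and 1.34 and 1.72 CPM for *Ecel1*, where the PDX males had 2.04 to 6.03 CPM of *Ecel1*. These 2 of the 6 genes then separated in males, as 10.3% of all genes did. With 3 against 3 mice, a two-sided exact permutation test cannot go below p = 0.1. The differences of mean log2 CPM in females and males were 2.70 and 0.33 for *Sprr1a*, 1.99 and 0.37 for *Ecel1*, 0.83 and 0.04 for *Flrt3*, 0.55 and -0.06 for *Gadd45a*, 0.27 and -0.09 for *Tnfrsf12a*, and 0.15 and -0.10 for *Gap43*. Without Fracture male 2 the male differences were 1.70 for *Sprr1a*, 1.17 for *Ecel1*, 0.24 for *Flrt3*, 0.10 for *Gadd45a*, 0.09 for *Tnfrsf12a* and 0.04 for *Gap43*. A difference between the sexes was not shown, since the interaction of sex with PDX had an adjusted p of 0.998 in edgeR for each of the 5 genes tested and an unadjusted p of 0.0801 at the lowest of these, for *Tnfrsf12a*. *Flrt3* was left out of this test, since it was picked on the same fracture mice. The male minus female log2 fold change of *Sprr1a* was -3.11 with all mice and -0.41 without Fracture male 2, and that of *Ecel1* was -2.01 and -0.72. Without that mouse, the adjusted p was 0.999 for each of the 5 genes. Among sham mice, *Flrt3* had 12.5 to 15.2 CPM in males and 8.79 to 9.97 CPM in females, and it was the one gene of the 6 in which each sham male lay above each sham female, as 6.75% of all genes did. *Sprr1a* overlapped, with 0.831 to 1.78 CPM in sham males and 0.41 to 0.889 CPM in sham females.

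The genes that differed most between groups also differed most between mice of 1 group. *Sprr1a* had an SD of 1.60 on the log2 CPM scale in fracture mice, more than 98.6% of 21340 genes, 1.59 in PDX mice and 0.69 in sham mice. Its highest value was 19.4 times its lowest in fracture mice, 13.3 times in PDX mice and 4.34 times in sham mice. *Ecel1* had an SD of 1.02 in fracture mice, more than 93.5% of genes. *Flrt3* at 0.28 and *Gadd45a* at 0.27 were nearer the median gene (0.168), and *Gap43* at 0.17 was close to it. The same mice stood out in each gene: Fracture male 2 was highest in its group for 6 of 6 genes, and so was Fracture+PDX female 3 in its own. The latter mouse was also highest in its group for the summed markers of skeletal muscle (563 CPM), fibroblasts (1812), macrophages (74.3), satellite glia (886) and epidermis (9.13). It was lowest for those of sensory neurons (11057), and the part of this in its values was not tested. In the PDX group, males 1 and 3 were the lowest pair for *Sprr1a*, *Ecel1*, *Flrt3*, *Gadd45a* and *Gap43*.

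How far the genes varied together was measured as the correlation between genes of log2 CPM across the 18 mice, after the mean of each group and sex had been removed. The permutations moved mice within each group but across the sexes, so their p-values can be too small. All 15 pairs had a Pearson's r above 0, from 0.317 to 0.872 with a median of 0.651, and 13 had an adjusted p under 0.05 for r (permutation test, Benjamini-Hochberg over the 15 pairs), but 8 for both r and Spearman's rho. These counts include the pairs of *Flrt3*. That gene was picked on sham and fracture mice among these 18, so no p-value of its pairs is given. *Sprr1a* and *Flrt3* had the highest r (0.87, with Spearman's rho of 0.86). This r was 0.77 without the mice farthest out in *Sprr1a*, Fracture male 2 and Fracture+PDX male 2. *Sprr1a* and *Ecel1* had r of 0.82 (permutation p = 0.000860, adjusted p = 0.00430) and rho of 0.75 (permutation p = 0.00171, adjusted p = 0.00855), and r was 0.66 without the same pair of mice. *Gadd45a* and *Flrt3* had r of 0.77 and rho of 0.73, and r was 0.80 without Sham male 1 and Fracture+PDX male 2. The lowest r, 0.32, was that of *Gadd45a* and *Ecel1* (permutation p = 0.226, adjusted p = 0.226), with rho of 0.15 (permutation p = 0.567). Within groups, *Sprr1a* and *Flrt3* had r of 0.24 among sham, 0.98 among fracture and 0.93 among PDX-treated mice (n = 6 each), and *Sprr1a* and *Ecel1* had 0.11, 0.90 and 0.87. Of the 15 pairs, r was below 0 for 6 among sham mice, 0 among fracture mice and 1 among PDX-treated mice. The sham values ranged from -0.95 for *Gadd45a* and *Ecel1*, with -0.81 for *Gap43* and *Ecel1*, up to 0.84 for *Gap43* and *Gadd45a*. The genes thus did not vary together in one direction among sham mice, where *Sprr1a* and *Ecel1* had few counts, and the difference between groups in r was not tested. Across mice, *Sprr1a* had r of -0.14 with the depth of the library (permutation p = 0.573; Spearman's rho 0.003, permutation p = 0.993), and r was -0.20 without Fracture male 2 and Fracture+PDX male 2. By group this r was -0.22 among sham, -0.76 among fracture and 0.34 among PDX-treated mice.

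**Figure D3:**
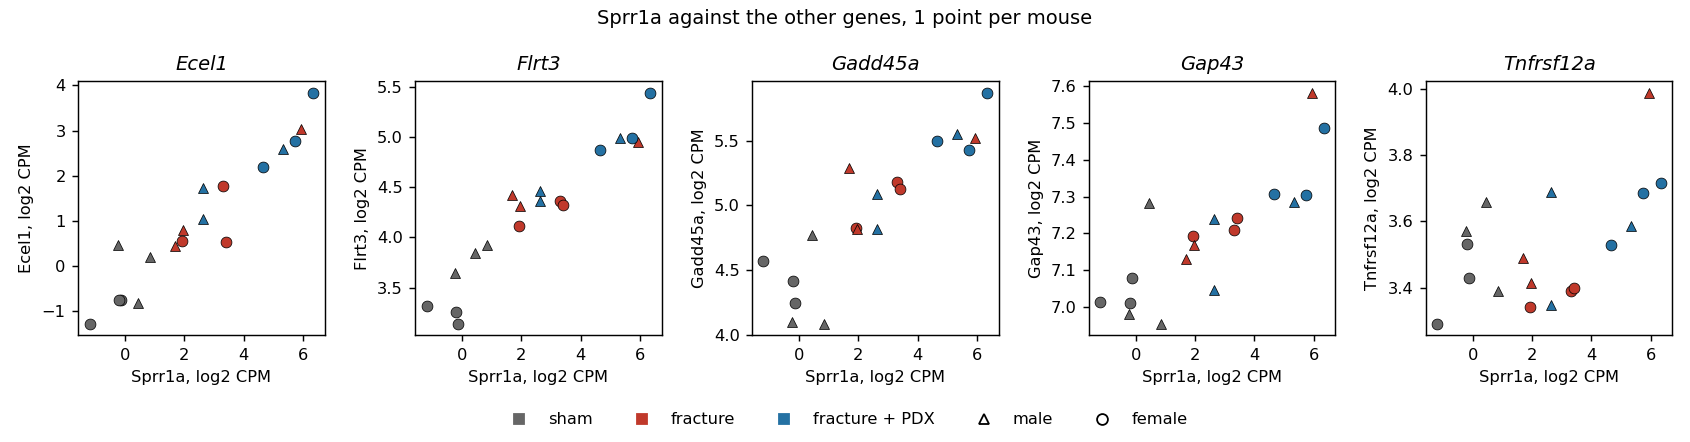
Log2 CPM of 5 genes against log2 CPM of *Sprr1a* in the 18 mice, colored by group, with triangles for males and circles for females. *Ecel1* and *Flrt3* follow *Sprr1a* across both fracture groups, while *Tnfrsf12a* varies over less than 1 log2 unit.

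Of the 21340 genes kept over the 18 libraries, and leaving the 6 themselves out of the ranking, the 3 whose log2 CPM was most like that of *Sprr1a* were *Itga7*, an integrin subunit that binds laminin (Pearson's r 0.98), the neuropeptide gene *Npy* (0.98) and *Gpr151*, an orphan receptor of sensory neurons (0.97). These correlations were taken across all groups, share the differences between groups and are given as a description. *Sprr1a* was closer to *Ecel1* (r of 0.95) and to *Flrt3* (0.95) than any gene outside the 6 was. The 3 genes named for *Sprr1a* were closer to it than *Ecel1* and *Flrt3* were, and *Ecel1* and *Flrt3* had r of 0.94. For *Ecel1* the closest other genes were *Gpr151* (0.95), *Itga7* (0.93) and *Sema6a*, a semaphorin (0.93), and for *Flrt3* they were *Itga7* (0.94), *Atf3* (0.94) and *Npy* (0.94). *Gadd45a* was most like *Atf3*, an injury-induced transcription factor (0.95), the lipase gene *Lipn* (0.95) and the amino acid transporter gene *Slc1a4* (0.92). *Gap43* was most like the neuropeptide gene *Gal* (0.89), the metalloproteinase gene *Mmp16* (0.89) and *Smim3* (0.86). *Tnfrsf12a* was most like *Csf1*, the macrophage growth factor (0.84), *Tpmt* (0.84) and *Esd* (0.84). *Itga7* was at 182 ± 11.2 CPM (SD, n = 6) in sham mice, 223 ± 26.9 CPM after fracture and 260 ± 34.8 CPM with PDX, values that its choice by likeness used.

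Other genes of the injury and growth program were counted in lists. Of 9 injury transcription factors, 2 rose in fracture against sham, *Atf3* (log2 fold change 1.65, adjusted p = 0.0141, edgeR) and *Sox11* (0.39, adjusted p = 0.0425), and 0 fell, where 1.09% of all genes were called higher and 1.83% lower. In PDX against sham 5 of the 9 rose, *Atf3* (2.21), *Sox11* (0.74), *Smad1* (0.22), *Klf7* (0.21) and *Stat3* (0.14). More of all genes were called higher in that comparison too, 2.17%, and 2.32% were called lower. *Jun*, a partner of ATF3 at AP-1 sites, had log2 fold changes of 0.01 and 0.15 and did not pass either test (adjusted p = 0.929 and 0.200, edgeR). Of 23 growth cone and cytoskeleton genes, 8 rose in fracture and 13 in PDX against sham, and 0 fell, with small changes such as *Tubb3* (0.17 and 0.21), *Stmn2* (0.18 and 0.19), *Ncam1* (0.16 and 0.23) and *Tubb6* (0.38 and 0.60). These are tubulins, a microtubule regulator and an adhesion molecule of the growing axon, and their median changes over the list were 0.13 and 0.19, against 0.002 and -0.001 over all genes. The 10 sensory neuron markers, which share *Tubb3* with this list, had medians of a similar size, 0.11 and 0.12, with 9 of 10 above 0 in each comparison. A difference between these lists was not tested. Of 8 secreted peptides and cytokines tested, 2 rose in fracture, *Npy* (2.51) and *Adcyap1* (0.78), and 4 in PDX against sham, *Npy* (3.29), *Nts* (2.09), *Gal* (1.96) and *Adcyap1* (0.92). Of 19 other injury-induced effectors, 0 were called in fracture and 4 rose in PDX against sham, *Cckbr* (3.55), *Gpr151* (2.49), *Sema6a* (0.89) and *Hspb1* (0.22). In fracture against sham *Cckbr*, a cholecystokinin receptor, differed by 2.36 (adjusted p = 0.0544, edgeR) and *Gpr151* by 1.60 (adjusted p = 0.0708).

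Partners and relatives of the 6 genes were mostly not called, as was true of all genes. Of all genes, 2.92% were called in fracture against sham and 4.5% in PDX against sham. Among 7 partners of *Gap43* (calmodulins, protein kinase C and *Nrgn*), 7 relatives and partners of *Gadd45a* and 9 genes of *Tnfrsf12a* signaling, including its ligand gene *Tnfsf12*, 0 were called in either comparison with sham. Of 12 relatives and partners of *Flrt3*, the latrophilin *Adgrl1* alone was called, higher in PDX against sham (0.14, adjusted p = 0.0134, edgeR). Of 6 peptidases related to *Ecel1*, *Kel*, the Kell blood group gene of red cells, fell by 1.27 on the log2 scale in fracture against sham (adjusted p = 0.0329, edgeR), and 0 were called in PDX against sham. In PDX against fracture 0 genes of any list were called. Values above 0 were found for 9 of 9 transcription factors, 18 of 23 growth cone genes, 17 of 19 other effectors and 7 of 8 secreted factors, with medians of 0.07, 0.04, 0.12 and 0.29. They were found for 2 of 7 *Gap43* partners, 5 of 7 *Gadd45a* partners, 3 of 6 *Ecel1* relatives, 7 of 12 *Flrt3* partners and 7 of 9 *Tnfrsf12a* signaling genes, and for 49.99% of all genes. Of 13 relatives of *Sprr1a* in the small proline-rich family, 10 were in the table, and none passed the filter, with at most 16 counts in any library.

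**Figure D4:**
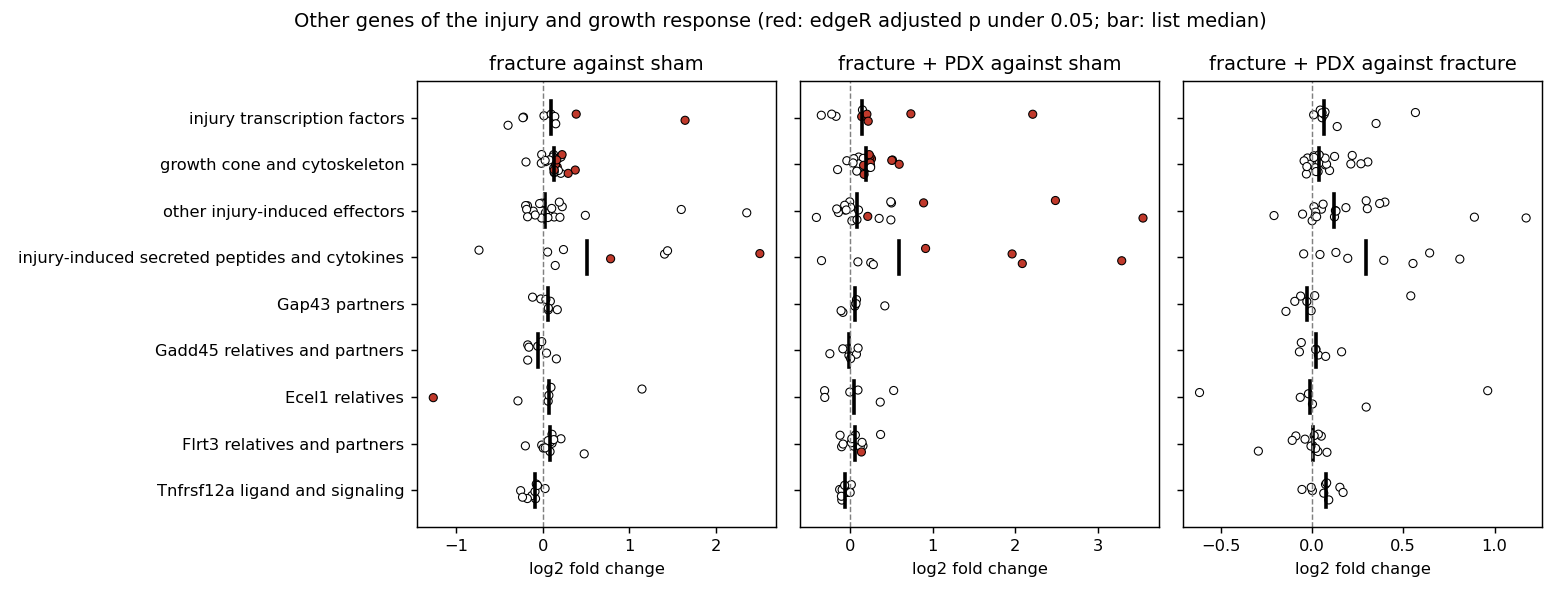
Log2 fold changes of the genes of 9 lists in the 3 comparisons, with 1 point per gene, red where the edgeR adjusted p was under 0.05, and a bar at the list median. Red points to the right of 0 lie in the transcription factor, growth cone and secreted peptide lists in both comparisons with sham and in the list of other effectors with PDX, with 1 more, *Adgrl1*, in the *Flrt3* list, and the panel of fracture plus PDX against fracture has none.

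Markers of other cells also differed between some of the groups compared. Of all genes, 1.83% were called lower in fracture against sham and 2.32% in PDX against sham. The sum of 6 macrophage markers was 72.8 to 81.3 CPM in sham, 52.0 to 67.1 in fracture and 54.9 to 74.3 in PDX mice. Of the 6, 2 were called lower in fracture against sham and 1 in PDX against sham. Within group and sex, *Sprr1a* had r of 0.73 with the macrophage sum across the 18 mice (permutation p = 0.00533, adjusted p = 0.0586 over 11 marker lists) and rho of 0.82 (permutation p = 0.00239, adjusted p = 0.0263), and r was 0.63 without Fracture male 2 and Fracture+PDX male 2. By group this r was -0.44 among sham, 0.78 among fracture and 0.87 among PDX-treated mice. The sum of sensory neuron markers was 10445 to 11213 CPM in sham, 11550 to 12221 in fracture and 11057 to 12747 in PDX mice, and its r with *Sprr1a* was -0.46 (permutation p = 0.0410, adjusted p = 0.226), with rho of -0.56 (permutation p = 0.0139, adjusted p = 0.0766), and r of -0.39 without the same pair of mice. By group it was 0.64 among sham, -0.66 among fracture and -0.86 among PDX-treated mice, so both relations had the opposite sign in sham mice. The sum of 5 endothelium markers was 104 to 145 CPM in sham, 88.9 to 109 in fracture and 85.7 to 101 in PDX mice, with no overlap between sham and PDX, and 2 of the 5 were called lower in each comparison with sham. Of 5 fibroblast markers, 1 was called lower in fracture and 0 in PDX against sham. None of 6 neutrophil markers was called in any comparison, and in PDX against fracture 6 of 6 lay above 0, with a median of 1.13. The 7 placenta markers were called lower in PDX against sham, 7 of 7, and 0 of 7 were called in fracture against sham, at a median log2 fold change of -1.76. Skeletal muscle markers summed to 27.3 to 619 CPM in sham, 52.7 to 1191 in fracture and 14.1 to 563 in PDX mice. None of the 9 was called, but 9 of 9 lay above 0 in fracture against sham, with a median log2 fold change of 2.02, and 0 of 9 in PDX against fracture, with a median of -1.91. The 10 epidermis markers in the table, of interest because *Sprr1a* is also a skin gene, summed to 8.91 to 16.0 CPM in sham, 9.13 to 12.7 in fracture and 6.74 to 9.13 in PDX mice, with no defining marker of any list at 0 in every library. *Sprr1a* alone was at 81.8 CPM in Fracture+PDX female 3, where the epidermis sum was 9.13, the highest of the PDX group. The part of other cell types in the differences of the 6 genes between groups was not tested.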

How the data were processed

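Bulk RNA-seq libraries of L3–L5 DRG from 18 mice were prepared from poly(A) RNA with a strand-specific kit and sequenced as paired ends. The authors deposited raw counts of 36737 genes, with no scaling. FPKM values of the same genes, scaled by transcript length and mapped fragments, were deposited beside them. The submitters' processing notes name mm10, cutadapt 1.10, FastQC, HISAT2 and StringTie, and neither the counting program nor the authors' test across all genes is given in the sources used here. Groups and sexes were taken from the sample labels. The sham columns carry the prefix Con in the files and were matched to the sham labels by sex and number, since the columns of the other groups name fracture and PDX. The labels name no sequencing batch, and 18 of 18 libraries had the sex of their label.

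The counts were fitted with edgeR 4.0.16 in R 4.3.3 (filterByExpr with minimum count 10 and minimum total 15, TMM, robust quasi-likelihood fit on sex and group, 12 libraries per comparison). Benjamini-Hochberg adjustment ran over every gene tested, and a gene was called at an adjusted p under 0.05. CPM were scaled over the 18 libraries, and log2 CPM used a prior count of 2. Single genes were compared with two-sided exact permutation tests, whose smallest p for 6 against 6 mice is 0.00216. Correlations used 100000 permutations of mice within each group, across the sexes, in Python 3.11.15 with scipy 1.17.1. Since the mean of each group and sex had been removed before, these p-values can be too small. Depth limits the values of *Ecel1* and *Sprr1a* in sham mice, which rest on 31 to 142 counts.

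The 6 genes and the lists were chosen with earlier results of these data known, so no list is independent evidence of its direction. Named genes are the 6 genes, up to 5 called genes per list and direction, or the 2 with the smallest p where none was called, and the 3 genes most like each of the 6, the other 5 set aside. *Tnfsf12*, the ligand gene of *Tnfrsf12a*, and *Jun* and *Stmn2* in comparisons with sham were named outside these rules. The alternatives were DESeq2 1.42.0, upper-quartile scaling, a fit without the low-count filter, a stricter filter (10 counts or more in each library), a fit without sex, a block for mice that share sex and number, 1 fit over the 18 libraries, limma 3.58.1 on log2(FPKM + 1) and log2(FPKM + 0.1), and the omission of each library in turn. The sex interaction and the male values without Fracture male 2 were added after the data were seen.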

Additional observations from a re-analysis of the deposited data

Results flagged for a closer look

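Fracture male 2 lay apart from the other 5 fracture mice in 3 of the 6 genes. Its gap to the nearest mouse, as a share of the whole range of log2 CPM in the group, was 0.753 for *Gap43* (192 CPM, the others 140 to 151), 0.637 for *Flrt3* (30.9 CPM, the others 17.3 to 21.4) and 0.773 for *Tnfrsf12a* (15.8 CPM, the others 10.1 to 11.2). Dixon's critical value for 6 samples is 0.625. Over the 18 gene and group combinations examined, chance alone gives about 1 in 20, and the 3 values come from a single library.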

How the results depend on the processing

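Of 383 alternative values for the 6 genes, 372 kept their direction and call where the gene was tested or, where it was not, moved by less than 1 SD between mice. Among the untested, *Tnfrsf12a* in fracture against sham (0.04) turned to -0.0053 without Sham male 2 and -0.0629 without Fracture male 2. The number of genes called was 603 in fracture against sham, 925 in PDX against sham and 0 in PDX against fracture, and DESeq2 gave 1511, 1620 and 15. Leaving out each library gave 213 to 710, 498 to 1008 and 0 to 1 genes. Numbers of mice did not pair the samples: for mice that share sex and number, the correlation of deviations was over 0.1 in 0, 0 and 1 of 6 pairs. A block for these pairs called 118, 486 and 0 genes, and gave *Sprr1a* 4.70 (adjusted p = 0.0521) and *Gadd45a* 1.0163 (adjusted p = 0.0528) in PDX against sham. *Gap43* in PDX against fracture (0.02) had the opposite sign without Fracture male 3 (-0.0045), without Fracture female 2 (-0.0011) or without Fracture+PDX female 3 (-0.0252), and ranged from -0.0252 to 0.104. *Gap43* in PDX against sham passed the threshold in DESeq2 and without Sham male 1 or Fracture+PDX male 3. With limma on log2(FPKM + 1), whose added 1 shrinks low genes, fracture against sham was 2.34 for *Sprr1a* and 0.48 for *Ecel1*, and PDX against sham was 3.74 for *Sprr1a* (adjusted p = 0.00962), 1.02 for *Ecel1* (adjusted p = 0.0249) and 1.01 for *Flrt3*, in place of 4.93, 2.97 and 1.35. Leaving out a library gave 0.75 to 2.54 for *Sprr1a* in PDX against fracture, the highest without Fracture male 2. For other differences the cause was not tested.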
